A study of Mus musculus with 2 samples.

Results

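Processed pseudogenes are annotated copies of spliced messenger RNAs, and 278 of the 5349 listed in the deposited gene tables of embryonic mouse central nervous system reached 1 TPM, the transcript level scaled by length and library size, in both libraries. Each of the 278 carries the GENCODE M21 type processed pseudogene and was chosen by that type and its deposited TPM values alone, so the detected level is a selection and not a result. The series holds 2 libraries of polyadenylated RNA longer than 200 nt from C57BL/6J embryos at day 18, both of unmanipulated tissue pooled from littermates of both sexes, and they form 1 group. The labels list a separate biosample for each library under one shared donor number, and they do not state how many embryos went into a pool. The spread between the libraries may therefore be in part technical, and ± gives the SD over n = 2 libraries. A second set of tables, on the mm9 genome with Ensembl release 65, gives RPKM, read counts scaled by gene length and library size, in 2 replicate columns that are not tied to either library.

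A processed pseudogene arises when a messenger RNA is reverse-transcribed by the machinery of a retrotransposon and the copy is inserted elsewhere in the genome. The copy lacks introns and usually lacks the promoter of its source, called the parent gene here. Short messages that are abundant in the germ line, above all those of ribosomal proteins and glycolytic enzymes, have left many such copies in mammalian genomes. Because a young copy differs from its parent at few positions, a read of the parent's RNA can fit the copy as well, and programs that assign reads treat such ties in different ways.

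The tables placed 93979836 fragments on genes in replicate 1 and 137012773 in replicate 2. Neuronal markers Tubb3, Stmn2, Snap25, Dcx and Map2 lay between 188.7 and 2731 TPM, and radial glial markers Fabp7, Slc1a3, Vim, Sox2 and Nes between 11.1 and 1603. All 5 skeletal muscle markers (Acta1, Mylpf, Ckm, Tnnt3 and Myh3) were higher in replicate 2, with summed levels of 12.9 and 475 TPM. The summed levels were 434 and 1407 TPM for 3 choroid plexus markers and 1533 and 1240 TPM for 3 red blood cell markers. No member had a parent among the 5 muscle markers, a list too short to show whether the muscle difference reached the members.

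The sequences below show how close the copies are to their parents, because most of the results turn on it. They are stretches of GENCODE M21 transcripts (GRCm38), written 5′ to 3′ on the strand of the gene, aligned without gaps inside the parent's coding sequence where the 2 transcripts differ most. Capitals mark bases that differ between the pseudogene and its parent. Gm10443 and Gm12338, both among the 10 highest members by TPM, are identical to the whole coding sequences of Rps28, a protein of the small ribosomal subunit, and Cox7c, a subunit of cytochrome c oxidase. For each, 1 stretch of 120 bases stands for both genes.
Gm10443 and Rps28: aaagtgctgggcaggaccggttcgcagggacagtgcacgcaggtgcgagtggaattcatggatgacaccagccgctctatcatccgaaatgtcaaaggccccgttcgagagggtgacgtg
Gm12338 and Cox7c: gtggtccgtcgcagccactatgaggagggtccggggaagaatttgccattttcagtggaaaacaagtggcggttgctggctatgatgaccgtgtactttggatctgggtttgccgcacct

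The next members, with 1 to 3 differences in such a stretch, recur in the comparisons. Gm14760 is a copy of Gapdh, the glycolytic enzyme gene, and Gm4149 a copy of Rpl37a, which encodes a protein of the large ribosomal subunit. H3f3c is a copy of H3f3a, which encodes histone H3.3, and Gm12715 a copy of the cytoplasmic actin gene Actg1.
Gm14760: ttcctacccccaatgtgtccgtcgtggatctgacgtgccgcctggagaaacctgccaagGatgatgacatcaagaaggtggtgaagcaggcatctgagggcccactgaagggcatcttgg
Gapdh: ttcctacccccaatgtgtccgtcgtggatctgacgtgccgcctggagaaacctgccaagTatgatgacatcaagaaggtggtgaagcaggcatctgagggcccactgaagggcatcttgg
Gm4149: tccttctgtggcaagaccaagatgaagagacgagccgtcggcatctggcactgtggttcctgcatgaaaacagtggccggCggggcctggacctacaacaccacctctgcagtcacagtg
Rpl37a: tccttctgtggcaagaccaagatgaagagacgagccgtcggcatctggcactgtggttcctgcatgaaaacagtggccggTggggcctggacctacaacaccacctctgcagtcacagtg
H3f3c: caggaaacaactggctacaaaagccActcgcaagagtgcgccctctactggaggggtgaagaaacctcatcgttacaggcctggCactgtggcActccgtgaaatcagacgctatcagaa
H3f3a: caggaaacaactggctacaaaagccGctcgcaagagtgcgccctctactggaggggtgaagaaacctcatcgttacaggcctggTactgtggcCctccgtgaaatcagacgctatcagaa
Gm12715: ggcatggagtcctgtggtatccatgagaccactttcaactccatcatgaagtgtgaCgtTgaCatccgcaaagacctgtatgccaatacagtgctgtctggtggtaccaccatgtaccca
Actg1: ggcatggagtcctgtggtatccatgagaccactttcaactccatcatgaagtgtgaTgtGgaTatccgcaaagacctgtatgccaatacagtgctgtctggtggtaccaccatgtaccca

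A diverged member is shown for contrast. Gm15696, a copy of Rps18, has 9 differences in 120 bases.
Gm15696: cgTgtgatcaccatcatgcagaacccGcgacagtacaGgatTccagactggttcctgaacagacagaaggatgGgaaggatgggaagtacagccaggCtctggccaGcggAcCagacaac
Rps18: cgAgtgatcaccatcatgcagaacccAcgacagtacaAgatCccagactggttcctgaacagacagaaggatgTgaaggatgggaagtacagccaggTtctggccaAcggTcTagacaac

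The members were mostly low. The median of their mean TPM was 4.70, with quartiles of 2.24 and 13.8, and 147 of 278 lay under a mean of 5 TPM. At the upper end 79 reached a mean of 10 TPM, 32 reached 50 and 15 reached 100. Their median TPM was 3.83 in replicate 1 and 5.30 in replicate 2. Together they took 115129 fragments in replicate 1 (0.122% of those on genes) and 228842 in replicate 2 (0.167%). For scale, 5.20% of processed pseudogenes passed the detection rule, against 62.9% of protein-coding genes and 34.2% of all genes.

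Members close to the detection limit show how thin the rule is there. Just inside, Gm7887 (a copy of Pcnp) had 1.00 and 1.58 TPM, Rps18-ps3 1.00 and 1.24, and Gm15989 (a copy of Mkrn1) 1.24 and 1.00 TPM in replicates 1 and 2. Just outside, Gm13241 had 0.990 and 1.82, Gm6451 0.990 and 1.23, and Gm7027 0.970 and 2.32 TPM. The deposited tables also give an interval for each TPM, at a confidence level that their headers do not state. Its lower bound fell under 1 TPM in at least 1 library for 69 members (24.8%), against 2.75% of all detected genes.

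**Figure D1:**
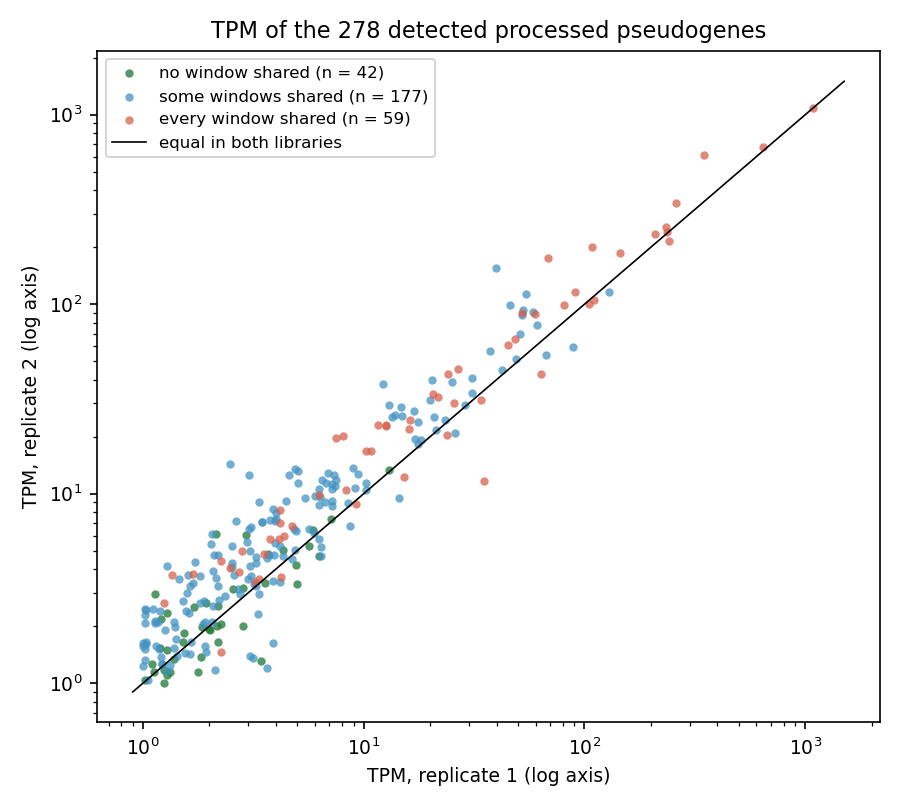
TPM of each of the 278 detected processed pseudogenes in replicate 1 (x axis) and replicate 2 (y axis), both on log axes, coloured by how much of the transcript is shared exactly with another gene. Most points with shared windows lie above the line of equality, and the members without a shared window lie on both sides of it.

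Copies of ribosomal protein messages led the list. Gm10443 (ENSMUSG00000072940, GRCm38 chromosome 6, 86334031 to 86334240, plus strand) had 1089 TPM in replicate 1 and 1087 in replicate 2, a mean of 1088 ± 1.12. Its level rests on an effective length of 16.7 nt in replicate 1, since the annotated transcript has 210 nt and the effective length is what remains after allowing for fragment size. The expected counts behind it were 1088 and 1759. Rpl27-ps3 (ENSMUSG00000073640, chromosome 18, 6332632 to 6333042, plus strand) had 643 and 672 TPM on 10492 and 16809 expected counts. Its parent Rpl27, a large-subunit protein gene, was listed lower, at 268 and 243 TPM. Rpl31-ps8 (ENSMUSG00000067870, chromosome 15) had 259.8 and 340.3 TPM, Gm7536, a copy of Rpl27a, 241.8 and 214.8, and Rpl15-ps3 207.8 and 234.0. The 5 genes stood in the same order of size in both libraries except that Gm7536 and Rpl15-ps3 changed places.

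Copies of respiratory chain and RNA-processing genes filled most of the remaining top places. Gm12338 (ENSMUSG00000081485, chromosome 11, 75599763 to 75599954, minus strand) had 348 TPM in replicate 1 and 614 in replicate 2. Only 168 and 470 expected counts lie behind those values, at an effective length of 8.09 nt in replicate 1. Ndufb4c (ENSMUSG00000083380, chromosome 15, 73809507 to 73809896, minus strand), identical to the transcript of the complex I subunit gene Ndufb4 over its whole length, had 234 and 256 TPM. Gm8186, a copy of Snrpg, a core protein gene of the spliceosomal snRNPs, had 237 and 240 TPM, and its libraries differed by less than those of Gm12338. Gm12481, a copy of Serf2, had 145 and 186 TPM. Gm10123, a copy of Ppia, which encodes the prolyl isomerase cyclophilin A, had 108 and 201 TPM. Each of the 10 highest members was 100% identical to its parent over the full aligned length.

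Short annotated transcripts make some levels fragile. An effective length under 50 nt applied to 13 members in replicate 1, and 15 members had fewer than 10 expected counts in replicate 1 and 9 in replicate 2. Gm14567, a copy of the RNA polymerase subunit gene Polr2k, was listed at 34.9 and 11.7 TPM on 7.47 and 3.80 expected counts. At the lowest, Gm20545, a second copy of H3f3a, had 1.00 and 2.63 expected counts and still met the rule with 1.00 and 1.63 TPM.

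Detected copies were much closer to their parents than the rest. A parent, meaning the protein-coding transcript with the best alignment over at least 50% of the pseudogene, was found for 275 of 278 members (98.9%) and for 4822 of the 5071 undetected processed pseudogenes (95.1%). For 2 members, Gm17084 and Marcksl1-ps4, the match is the gene whose exon the model overlaps on the same strand (Ripk1 and Akr1c19), so their identity of 100% is that of overlapping models. The same held for 4 undetected copies. The median identity was 99.4% for members, with quartiles of 97.9% and 99.8%. For undetected copies it was 89.9%, with quartiles of 82.5% and 95.4%. An identity of at least 99% was reached by 171 members (62.2%) and by 274 undetected copies (5.68%). The 275 members fall on 211 distinct parents, 39 of which have more than 1 member, so the members are not independent of each other.

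**Figure D2:**
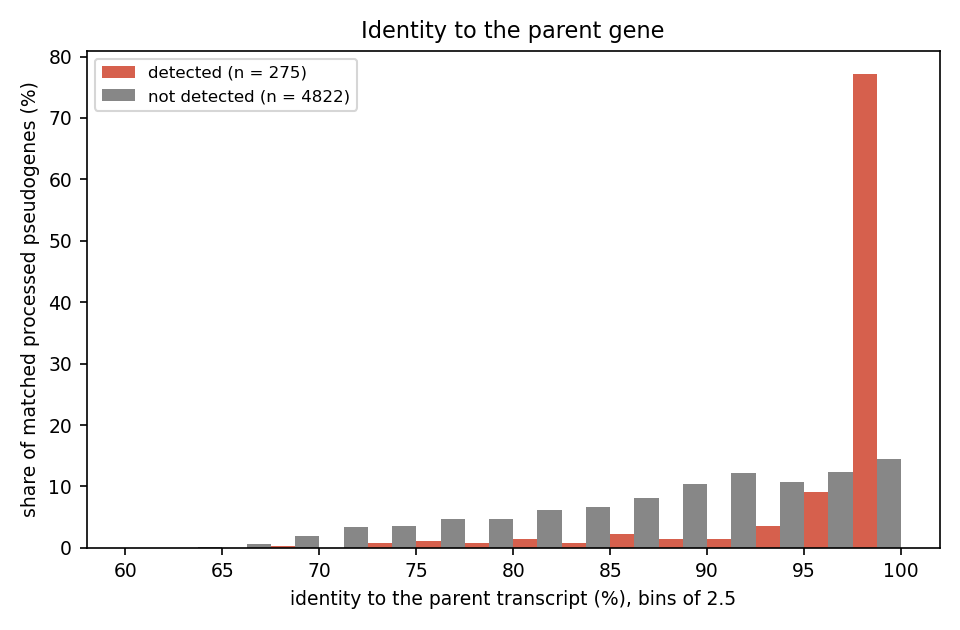
Share of matched processed pseudogenes (y axis, %) by identity to the parent transcript (x axis, %, bins of 2.5) for 275 detected (red) and 4822 undetected (grey) copies. The highest bin holds 77.1% of the detected and 14.4% of the undetected copies.

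Exact sharing at the length of a read was measured in windows of 101 nt, the read length in the labels. The median member shared 68.9% of its windows exactly with a transcript of another gene, while the median undetected copy shared 0%. Every window was shared in 59 members (21.2%) and no window in 42 (15.1%). Over all processed pseudogenes with a window those shares were 4.11% and 64.3%. Among the 236 members with a parent and a shared window, the gene that shared most was the parent in 202. In others it was another pseudogene, as for Rps13-ps4, whose windows matched Rps13-ps1 most often. For 210 members the M21 transcript has the length used in the tables. For the others, Rpl27-ps3, Gm8186, Gm4149 and Gm7336 among them, identity and shared windows rest on a model of another length.

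Long closed reading frames were more frequent among members. A frame was counted from a start codon to a stop codon inside the M21 model. The longest such frame reached at least 90% of the parent's coding length in 122 of 275 members (44.4%). It did so in 497 of 4822 undetected copies (10.3%) and in 12.1% of all matched copies. It reached 100% of that length in Gm10443, Gm12338, H3f3c and Gm12715. Frame length follows identity in part by construction, and the part of identity in the difference was not tested. By this measure Gm4149 scored 9.68%, Gm14760 19.2% and Gm10123 18.8%. A copy whose model ends before the parent's stop codon is scored by another, shorter frame. The Gm14760 model has 999 nt beside 1002 coding nt in Gapdh, and Gm7536, identical to Rpl27a along its whole model, scored 24.2%. Low scores therefore need not mean a broken frame, and the counts can understate the frames kept. Length itself differed little, with medians of 526.5 nt for members and 544 nt for undetected copies.

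Grouped by the function of the parent, 87 members (52 distinct parents) were copies of cytosolic ribosomal protein genes, 53 from the large and 33 from the small subunit by symbol, and 1 from Fau. That group makes up 26.3% of all processed pseudogenes, and 6.19% of its 1406 copies were detected. Its members had a median of 5.30 TPM while the median of their parents was 876. Next came 14 copies of chromatin and high mobility group genes, 13 of RNA-binding and splicing genes, 11 of oxidative phosphorylation genes and 11 of glycolytic and metabolic genes. The remaining groups were cytoskeleton (8), ubiquitin (7), translation factors (6) and chaperones and proteasome (4), with 114 members in no list and 3 without a parent. Detection was most frequent among copies of cytoskeletal (10.4% of 77) and RNA-binding genes (10.2% of 128) and least among those of chaperone and proteasome genes (2.96% of 135), leaving aside copies without a parent.

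Chromatin copies were led by Gm15387, a copy of Hmgb1, whose protein bends DNA, at 105.1 and 99.99 TPM. H3f3c followed at 52.4 and 88.2 TPM and Gm4204, a copy of the histone chaperone gene Nap1l1, at 18.1 and 19.3. Among copies of RNA-binding genes, Gm7964 (parent Hnrnpk) had 48.9 and 51.3 TPM and Snrpert (parent Snrpe, a snRNP protein gene like Snrpg) 42.5 and 45.2. Both libraries were close for these 2 genes. Copies of cytoskeletal genes were led by Gm12715, at 88.7 and 59.3 TPM, with the alpha-tubulin copies Gm14150 at 6.03 and 9.72 and Gm6682 at 3.03 and 12.6.

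The ubiquitin group was led by Gm10241, a copy of Sumo2, at 110 and 105 TPM, then by Gm6565 (parent Ube2v2) at 44.9 and 61.2 and Gm10705 (parent Ube2l3, an E2 conjugating enzyme gene) at 2.52 and 5.29. For translation factors the leading copies were Eif4a-ps4 at 20.0 and 31.3 TPM, the elongation factor copy Gm13456 at 5.02 and 13.2, and Gm2223 (parent Eif2s3x) at 4.14 and 5.79. Behind Gm10123 in its group stood the Hspa8 copies Gm8355 at 30.9 and 40.7 and Gm15459 at 6.48 and 11.8 TPM. Hspa8 encodes a constitutive heat shock cognate chaperone. Gm10221, a copy of the ATP synthase subunit gene Atp5l, had 8.07 and 20.1 TPM. Outside the lists, Gm7332 (parent Ppp1r14b) had 58.6 and 91.2 TPM and Gm9800 (parent Ptma, prothymosin alpha) 60.9 and 78.1. In all but the Sumo2 copy among these 11 genes, replicate 2 held the higher TPM.

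Gapdh had the largest family, with 7 members out of 197 copies matched to it. Gm7336 had 128.7 and 115.8 TPM, Gm12671 68.3 and 174.5, and Gm10359 90.2 and 116.1. These 3 transcripts share nearly all windows with Gapdh, and their intervals overlapped widely. For Gm10359 the interval ran from 22.7 to 157 TPM in replicate 1 and from 23.8 to 238 in replicate 2. Together the 7 copies summed to 295 and 427 TPM beside 2494 and 2546 for Gapdh. Hmgb1, Ptma, Rpl17, Rpl23a, Rpl9 and Rps2 had 4 members each. Those of Rpl23a summed to 80.95 and 177.8 TPM, beside 1916 and 1803 for the parent.

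Most members were a small fraction of their parent in TPM. The median member stood at 1.97% of its parent, leaving out parents listed at 0, and 13 of 275 exceeded it, against 0.769% of all matched copies. The detection rule used the same TPM values, so this count is a description. Of the 13, Gm10443, Rpl27-ps3, Ndufb4c and Gm8186 exceeded parents that were themselves abundant. In expected counts 9 members exceeded their parent, and Gm10443 was not among them, with 1088 and 1759 counts beside 11474 and 14813 for Rps28. Ndufb4c was listed at 234 and 256 TPM beside 44.8 and 51.6 for Ndufb4. Gm4735, an enolase copy, had 3.75 and 7.23 TPM beside a mean of 0.825 for its closest match Eno1b. The closest match need not be the most expressed gene of its kind, and Eno1 stood at 418.4 and 414.7 TPM. E530001F21Rik had 3.09 and 3.69 TPM beside 0.110 and 0.130 for Crxos. For AA414768 and Gm14756 the matched genes, E330021D16Rik and Vmn2r15, were listed at 0 in both libraries. Gm17084, which overlaps an exon of Ripk1, is also among the 13, and 12 remain without it. Gm14756 rests on 8 and 9 expected counts.

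The order of copy and parent was different in the mm9 table. Among 237 members with RPKM values for both genes, 126 (53.2%) exceeded their parent in mean RPKM, against 12 of the same 237 in mean TPM. Over all matched processed pseudogenes, 6.72% exceeded their parent in RPKM. The median member stood at 118% of its parent's RPKM. For copies of ribosomal protein genes the medians were 30.9 RPKM for 74 members and 11.7 RPKM for their parents, and 46 of the 74 exceeded the parent. Rpl31-ps8 had 139.8 and 147.2 RPKM in the 2 columns where Rpl31 had a mean of 3.85. In TPM the same genes stood at a mean of 300.1 and 1369.

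**Figure D3:**
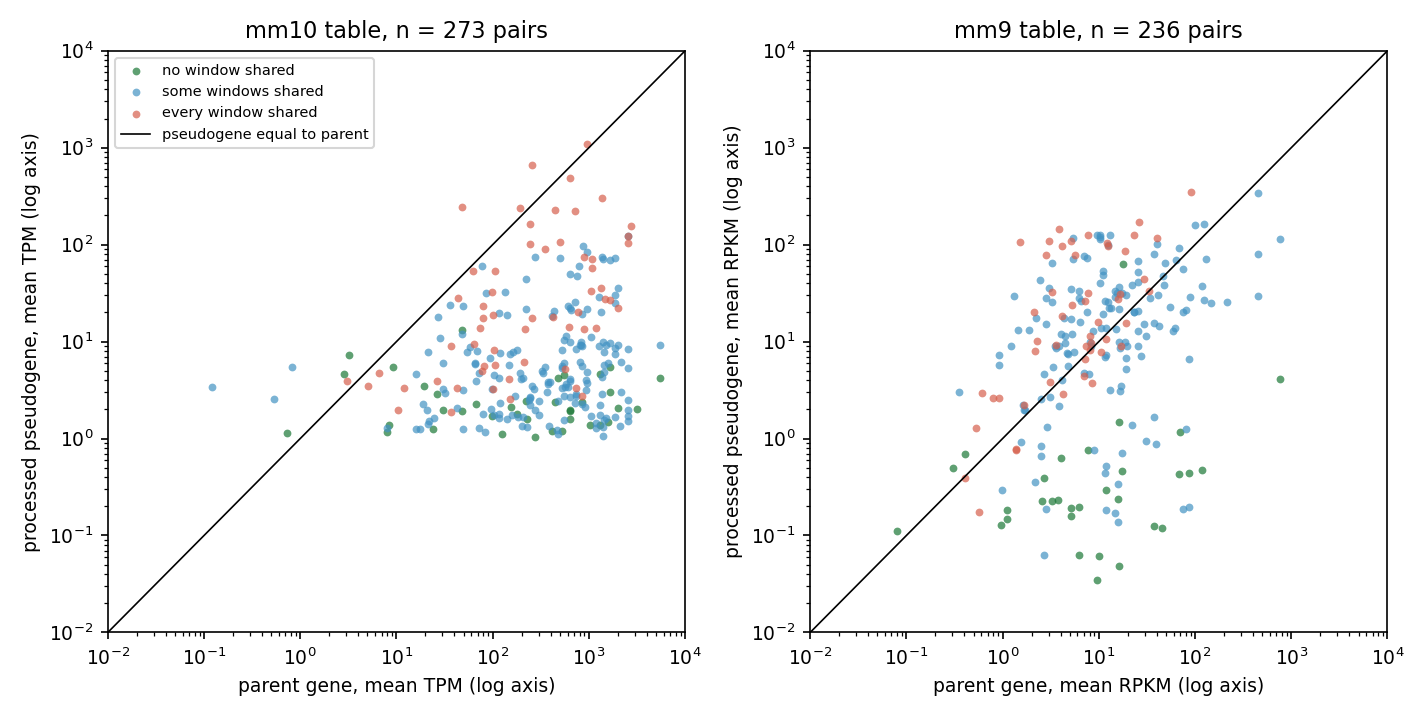
Mean level of each processed pseudogene (y axis) and of its parent gene (x axis) in the mm10 table (left, TPM) and the mm9 table (right, RPKM), all on log axes, with the line of equality. Pairs with a value of 0 are not drawn. With the pairs not drawn included, 13 of 275 members exceed the parent in TPM and 126 of 237 in RPKM. Of the same 237, 12 exceed it in TPM.

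A comparison across units has to allow for their scale, so each gene's mean RPKM was expressed as a percentage of its mean TPM. The median was 12.4% over the 14119 detected genes with an mm9 entry. It was 9.62% for the 35 members without a shared window and 178% for the 208 members with one. The 192 distinct parents had a median of 5.33%. Members with shared windows were thus placed higher relative to all genes in the mm9 table than in the mm10 table. The 192 parents, which include those of members without a shared window, were placed lower. The M4 and release 65 gene models differ as well as the programs, and the part of each was not tested.

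The mm9 table supplied an entry for 243 members, and 35 had none. RPKM was at least 1 in both columns for 186 of the 243 (76.5%), against 70.4% of all detected genes and 13.8% of all processed pseudogenes. It was above 0 in both for 242, against 99.8% of all detected genes. The highest members in RPKM were Gm17383 (343.4 and 339.2, a copy of Tuba1b), Gm10123 (316.6 and 378.5), Tpt1-ps3 (169.6 and 173.8), Gm12715 (205.2 and 119.4) and Gm11223 (180.0 and 136.5, a copy of Stmn1). In TPM those genes ranged from 5.68 for Gm17383 to 154.7 for Gm10123 in the mean. No member was at 0 in both columns. The lowest was the Gapdh copy Gm7336, at 0.0139 and 0 RPKM and a mean of 122 TPM.

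Stranded contigs of the mm9 set, which mark regions with reads without regard to gene models, covered at least 50% of the gene on its own strand for 232 of 243 members (95.5%). The share was 41.8% over all processed pseudogenes with an mm9 entry. The opposite strand was covered to that extent for 25 members (10.3%), against 17.5% of all processed pseudogenes. Gm17383 and Gm14756 were among the few not covered on their own strand.

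The 42 members without a shared window are those with no 101-nt stretch of the M21 model found exactly in another annotated transcript. A window that differs at any base counts as unshared, and some of these M21 models differ in length from those in the tables. Whether their reads were assigned to them alone was not tested. Their median identity was 88.6%, and their median was 2.06 TPM and 0.229 RPKM. Gm12276, a copy of the cytochrome c gene Cycs, was the highest at 13.04 and 13.38 TPM. Bambi-ps1 had 7.08 and 7.34 TPM, above its parent Bambi, which encodes a TGF-beta pseudoreceptor, at 2.80 and 3.62. AA414768, on the X chromosome (12936872 to 12938128, plus strand), had 5.87 and 6.41 TPM. In RPKM Bambi-ps1 also exceeded Bambi, with 0.653 and 0.723 beside 0.340 and 0.474. These 3 genes differed little between libraries. An exception in RPKM was Rpl39-ps, 99.3% identical to Rpl39 in a model of 355 nt in the tables and fewer in M21, with 2.92 and 6.08 TPM but 58.99 and 66.09 RPKM. Apart from AA414768, these genes were singled out after their values were seen.

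Many of the unshared copies lie inside other genes. A gene of another type overlapped 20 of the 42 on the same strand (47.6%), against 45 of the 236 with a shared window (19.1%) and 12.5% of all processed pseudogenes. For 18 of the 20 the surrounding gene was itself detected. Gm17195 (4.95 and 4.23 TPM) lies in Vti1b, a SNARE gene at 89.1 and 93.2 TPM. AA413626 (3.44 and 1.31 TPM) lies in Thoc5 at 64.7 and 63.3, and Gm15828 (1.10 and 1.26 TPM) in the adhesion gene Cadm2 at 35.2 and 31.0. The tables do not separate RNA of the surrounding gene from RNA of the copy, and its part in these levels was not tested.

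Across all members 65 overlapped such a gene on the same strand, 7 of them at an exon, and 52 on the opposite strand. The shares among all processed pseudogenes were 12.5%, 0.991% and 20.6%. The highest overlapping members were Ndufb4c in Mroh5, which was listed at 0.170 and 0.150 TPM, and then Gm4149, Rpl19-ps11 and Gm12715, each of which overlapped a miRNA gene listed at 0. Gm13509, a copy of the clathrin adaptor gene Ap2m1, had 51.1 and 70.0 TPM within Mbd5 at 16.5 and 14.7. By chromosome, 25 members lay on the X (8.99%), where 17.3% of all processed pseudogenes lie, and none on the Y.

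The 5 members least like their parents were all under 1 RPKM in the mm9 table. The lowest identities were those of Gm715 (70.0% to 1810013L24Rik), Gm17195 (72.6% to Pycard), AA413626 (74.7% to Rpl17), Gm14001 (76.5% to Snrpe) and Gm15828 (76.9% to Rpl9-ps6, which M21 lists as coding). Gm715 had 3.57 and 3.36 TPM with 0.384 and 0.396 RPKM, and Gm14001 2.85 and 2.00 TPM with 0.0598 and 0.0669 RPKM. No parent passed the alignment limit for Gm12941 (2.14 and 6.14 TPM on 3 and 14 expected counts), Gm12439 (2.25 and 2.05) and Gm16574 (1.54 and 1.84). Gm16574 lies within Airn, the imprinted antisense RNA gene of the Igf2r locus.

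The 2 libraries differed in the members and not to a like extent in their parents. Ratios used TMM-scaled expected counts, to which a prior count of 1 was added, for the 265 members that passed the filter on low counts, and 13 did not pass. With 1 library on each side there is no test. The detection rule used the TPM of these same 2 libraries, so the members' ratios are a description of a selected set. The median member had a log2 ratio of 0.46, replicate 2 over replicate 1, with quartiles of 0.09 and 0.86, and 212 of 265 were higher in replicate 2. The median of all 18677 genes tested was 0.00, and 50.5% of them were higher in replicate 2. At least 2-fold higher were 42 members (15.8%), against 2.64% of all genes, and at least 2-fold lower were 5 (1.89%), against 0.937%. Either way, 47 members and 3.58% of all genes were 2-fold apart. The 208 distinct parents with a ratio had a median of -0.02, with 1 at least 2-fold higher and 0 lower. Members held only 2.05% and 2.79% of the counts pooled with their parents in replicates 1 and 2. Reads moved between copies and parents would therefore change the pooled parents little. The parents were also far higher, with a median of 386 TPM taken once per member, so they are a limited contrast.

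Gm14760 had the highest ratio. It had 2.47 TPM in replicate 1 and 14.4 in replicate 2, on 117 and 1038 expected counts, a log2 ratio of 2.55. Its parent Gapdh had a ratio of -0.03. Gm6682 followed at 2.09, though the M4 transcript has 297 nt and the M21 transcript is longer. Gm4149 had 39.7 and 155 TPM on 381 and 2295 expected counts, a log2 ratio of 2.00, and its parent Rpl37a -0.16. Gm10335, a copy of Rpl23a, reached 1.65 and Gm6344, a copy of Rpl29, 1.56.

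At the other end stood Gm15696, with 3.65 and 1.21 TPM and a log2 ratio of -1.52, and AA413626 at -1.34. Rps13-ps4 had -1.20, Gm7645 (closest to Pim2, a kinase gene) -1.17 and Gm9013, a copy of Rps2, -1.08. Their expected counts lay between 27 and 123.4. Gm15696, AA413626, Rps13-ps4 and Gm9013 lie within the same-strand genes Senp5, Thoc5, Taf1c and Atp8a2. In replicates 1 and 2, Senp5 had 11.45 and 11 TPM, Thoc5 64.7 and 63.3, Taf1c 20.5 and 18.4, and Atp8a2 7.33 and 5.18. All 4 were lower in replicate 2, by less than the copies within them.

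The median ratio was above 0 in every functional group of parents, under each of the scalings tried (between 0.13 and 0.94). The median log2 ratio was 0.62 for copies of ribosomal protein genes (85 with a ratio, 68 higher) and -0.04 for their parents. For chromatin genes it was 0.49 (parents -0.05), for RNA-binding genes 0.25 (parents 0.03) and for oxidative phosphorylation genes 0.31 (parents 0.14). Glycolytic copies had 0.33 (parents -0.03), cytoskeletal copies 0.59 (parents -0.21) and ubiquitin copies 0.47 (parents -0.05). Translation factor copies had 0.56 and chaperone copies 0.89, over 6 and 4 members. Of 261 pairs with both ratios, the member's ratio was above its parent's in 209, with the limit on the parents given above.

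**Figure D4:**
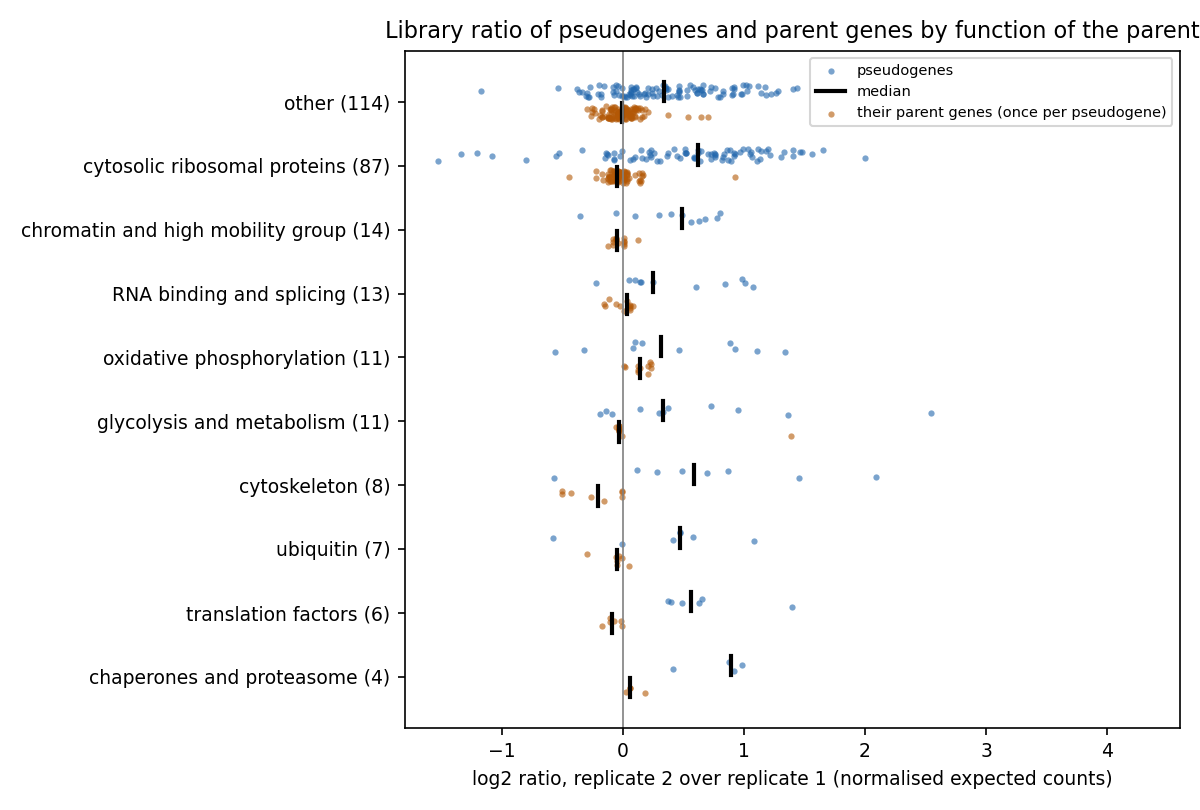
Log2 ratio of replicate 2 over replicate 1 (x axis, scaled expected counts) for members (blue) and their parents (orange, drawn once per member) by function of the parent (y axis, number of members in brackets), with medians as black bars. The medians of the members lie between 0.25 and 0.89, and those of the parents between -0.21 and 0.14.

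The median ratio was lower in members without a shared window than in those with one, and did not rise further with the share. Members without a shared window were also low in level (median 2.06 TPM). A same-strand gene overlapped them more often (47.6% against 19.1%), and the part of level or overlap was not tested. In the 36 members without a shared window and with a ratio the median was 0.05, and 19 were higher in replicate 2. The median was 0.56 in 54 members with up to 50% of windows shared, 0.53 in 119 with more than 50% but not all, and 0.49 in 56 with every window shared. Over the scalings tried, the median lay between 0.02 and 0.10 without a shared window and between 0.40 and 0.57 with one. Among undetected processed pseudogenes, 246 passed the count filter and had a median of 0.44, with 47 at least 2-fold higher and 1 lower. That set is shaped by the detection rule, since 380 copies reached 1 TPM in replicate 2 and only 304 in replicate 1. Its median is therefore a description and no separate support for the shift. The libraries also differed in depth, and in muscle and choroid plexus markers as given above, and the part of either in the shift was not tested.

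Both columns of the mm9 table were close for the same members. Of 119 members with at least 10 RPKM in both columns and a library ratio, 28 were at least 2-fold apart between the mm10 libraries and 0 between the mm9 columns. Among the 1761 detected genes at that RPKM, these members included, the shares were 1.99% and 0.284%. Their median absolute log2 ratio was 0.70 in mm10 and 0.12 in mm9. Over those 1761 genes the medians were 0.08 and 0.10. Gm4149 had 118.7 and 115.7 RPKM, Gm14760 31.8 and 26.3, and Gm10335 110.4 and 116.5. The columns are not tied to libraries, so only the size of the difference, and not its direction, can be set beside the mm10 ratios.

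**Figure D5:**
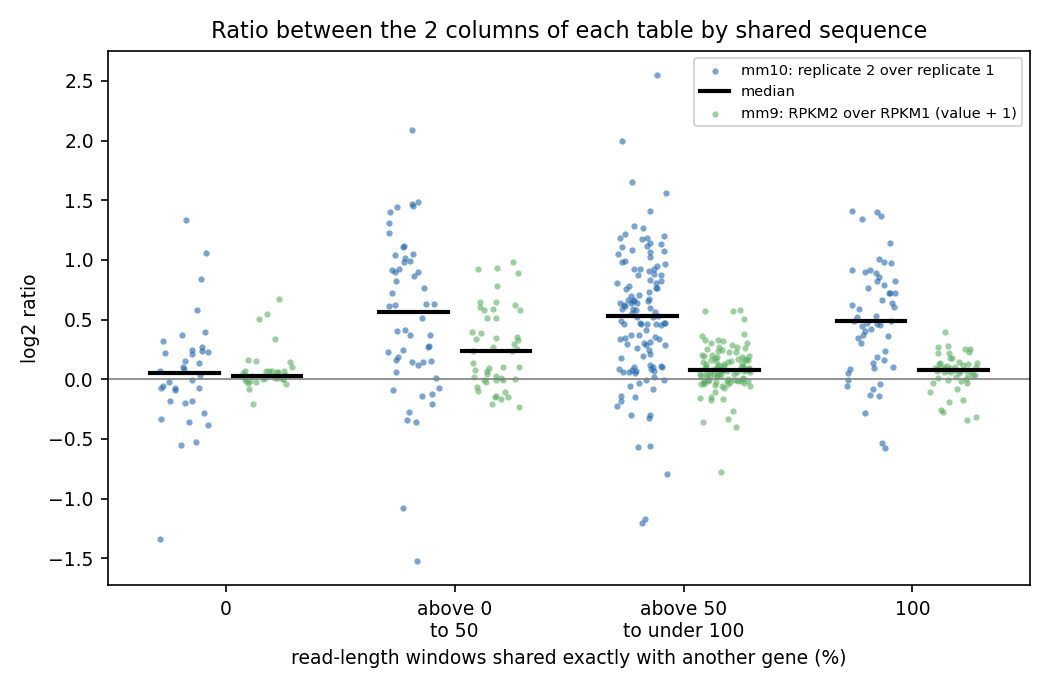
Log2 ratio between the 2 columns of each table (y axis) by the share of 101-nt windows found in another gene (x axis, %), for the mm10 expected counts (blue, replicate 2 over replicate 1) and the mm9 RPKM (green, column 2 over column 1, each value + 1). Black bars are medians, which in mm10 are 0.05 without shared windows and 0.49 to 0.56 with them.

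Per read assignment, the members and their 211 parents can be taken as one pool. Members held 2.05% of the pooled expected counts in replicate 1 and 2.79% in replicate 2. Within the Rpl23a family the share was 3.17% and 7.10%, and within the Gapdh family 8.33% and 11.9%. The Hmgb1 family held 12.1% and 11.8% and the Rps2 family 0.582% and 0.577%, nearly equal in both libraries. The deposited interval, as a percentage of the TPM, had a median width of 53.6% in replicate 1 and 37.0% in replicate 2 for members, against 10.2% and 8.28% for all detected genes. It was 70.4% and 56.0% in members without a shared window and 46.2% and 30.5% in those with every window shared. These sets also differed in level, with medians of 2.06 and 18.95 TPM. A width relative to the TPM depends on the count as well, and the part of shared sequence in it was not tested.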

How the data were processed

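Stranded pairs of 101-nt reads were sequenced from ribosome-depleted, polyadenylated RNA, per the labels. The authors deposited expected counts, TPM and FPKM per gene on mm10 with GENCODE M4, per the read-me texts, and the interval bounds of TPM as a signal column. No source used here names the aligner or the quantification program. The authors also deposited, on mm9, RPKM per Ensembl gene in 2 columns with an irreproducibility score, and contigs with a signal level and a score given as a fraction, per the file headers and attributes. Mm9 positions were used only among mm9 files.

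The members and lists were chosen with earlier results of these data known. Named genes are the 10 highest members, the 5 highest and lowest library ratios, RPKM values and ratios to the parent, the 3 highest of each group, the lowest identities, the threshold neighbours and the highest within other genes; others are said to be chosen later. Types, positions and sequences came from GENCODE M21, whose length equals that of the tables for 210 of 278 members. Parents were found with BLAST+ 2.17.0 (blastn) among protein-coding transcripts, and 11 members had tied best parents. Overlaps used bedtools 2.31.1. Expected counts were rounded, filtered with filterByExpr and scaled with TMM in edgeR 4.0.16. Entries other than genes (3.62% and 4.01% of fragments) stayed out. A count of 0 allows 3 fragments, or 0.0319 and 0.0219 CPM, which covers counting error only. Tested on simulated data, the parent search returned 99.5% of 200 copies with 10% of bases changed. With 43346 genes simulated, the ratio step placed 0.111% of the unchanged genes that passed the filter at 2-fold or more. That simulation held counting error only, without spread between libraries or reads that fit 2 genes, so it gives no error rate for the members. Alternatives covered other thresholds, units, scalings (DESeq2 1.42.0 among them), prior counts, alignment limits and single libraries.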

Additional observations from a re-analysis of the deposited data

How the results depend on the processing

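No paired analysis was possible because the 2 libraries form 1 group. The number of detected processed pseudogenes was 423 at a TPM of 0.5 and 110 at a TPM of 5, and lay between 304 and 380 on a single library. The median TPM lay between 3.83 and 5.30 on a single library. With the deposited TPM and a pseudocount of 1, which damps low values by construction, 23 members were at least 2-fold apart (21 higher and 2 lower in replicate 2), against 47, 42 and 5. The median log2 ratio was 0.51 with library sizes alone, 0.44 with a prior count of 5 and 0.36 from deposited TPM, and kept its direction under every scaling. Of members named by the stem before -ps, 62 had a gene of that symbol, which was the sequence match for 61. The median identity was 99.42% at 80% aligned, beside 89.91% in undetected copies. On the opposite strand 25 members had contigs over at least 50% of the gene. On the same strand 7 members overlapped an exon of a gene of another type. Chosen after seeing the data were the count above the parent in mm9 RPKM (126 against 13, which is between 13 and 14 on a single library), and the median ratio without members shared in every window (0.41) or at a mean of 5 TPM or more (0.53). Members with the same length in M21, also chosen then, had a median ratio of 0.40 and a median identity of 99.37%, which is also the value without the 2 members whose match overlaps them. Depth limits the 13 members outside the count filter, none above 22.5 expected counts.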

Other observations

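Processed pseudogenes outside the detected set also carried signal in the mm9 table. Of 3566 undetected copies with an mm9 entry, 340 had at least 1 RPKM in both columns and 73 had at least 10. The 340 had a median of 0.268 TPM and a median identity of 98.7% to their parents, and 117 of them were copies of ribosomal protein genes. The highest, Gm9701, a copy of Rps23, had 93.6 and 97.3 RPKM and was listed at 0 TPM in both libraries. Rpl7a-ps11 had 96.1 and 84.4 RPKM, with 0 and 3.24 TPM. Rps12l1, identical to Rps12 over its aligned length, had 77.6 and 92.1 RPKM with 0.370 and 0.330 TPM. The Gapdh copy Gm13394 had 93.2 and 83.9 RPKM with 0.850 and 1.79 TPM, and Gm15710, a copy of Rpl13, 74.96 and 78.19 RPKM with 0.210 and 0.270 TPM. These 5 genes are the highest undetected copies by mean RPKM, a rule chosen after seeing the data.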
